A study of Mus musculus with 24 samples.

Results

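Protein synthesis on most cellular mRNAs begins with the eukaryotic initiation factors. eIF2 brings the initiator tRNA to the small ribosomal subunit, and eIF2B reloads eIF2 with GTP. eIF3 holds the preinitiation complex together, and the eIF4F complex (the cap-binding protein eIF4E, the scaffold eIF4G and the helicase eIF4A) recruits the mRNA. The 4E-binding proteins block eIF4E until mTORC1 phosphorylates them, a step much studied in mammary cancer. The genes described here are those for which the array has a probe under a symbol starting with Eif and a digit from 1 to 6, without the eIF2-alpha kinases (Eif2ak1 to Eif2ak4) and Eif2s1. There were 84 such probes of 39429, for 53 of 30122 genes, and 49 of the 53 passed a filter on low signal, among 20969 genes tested. Members of the former Eif2c family (now Ago1 to Ago4) carry the older symbol and encode Argonaute proteins of small-RNA silencing, not initiation factors. Eif4a3 is a helicase of the exon junction complex, and Eif5a acts mainly in elongation.

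The samples were 24 mammary tumors of BALB/c mice given the carcinogen DMBA, 1 tumor per array. Mice ate a low-fat diet (LFD), an animal-fat diet rich in saturated fat (HFD), the HFD from peripuberty and the LFD as adults (HFD-LFD), or the reverse (LFD-HFD), and the labels divided the tumors by early or late onset. There were 3 early and 6 late HFD tumors, 3 early and 3 late HFD-LFD tumors, 5 late LFD tumors and 4 late LFD-HFD tumors. No early tumor came from a mouse that ate the LFD in peripuberty, and the labels do not say whether 2 tumors shared a mouse, so p-values measure the spread between tumors. A tumor is a mixture of cells, and a higher level in a cell type cannot be told apart from more cells of that type. The epithelial keratin genes Krt8, Krt18, Krt5 and Krt14 were well above background on every array with a value.

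Each array held tumor RNA in one dye and a common reference, RNA pooled from 11 mouse cell lines, in the other. Values are log2 ratios of tumor to reference, so 0 means the level of the reference, and a level cannot be set against that of another gene. The labels put the tumor in the red channel, whereas the study's methods text puts the reference there, and the signs here therefore oppose that text. The signals side with the labels: the median SD between arrays was 0.61 in the red and 0.26 in the green channel on the log2 scale. The Y-linked member Eif2s3y, which cells without a Y chromosome lack, had red signals of -14.3 to 5.69 and was well above background on 0 of 20 arrays, and its green signals were 339 to 1080. The arrays lay on 7 slides read in 3 scan sessions. All 3 early HFD tumors were on slide 2, which held no late HFD tumor, so within the HFD slide and onset cannot be told apart. All 3 early HFD-LFD tumors were on slide 4, read in session 2 and not in session 1 like slide 2, so wherever the early tumors of the 2 diets differ below, diet, slide and session cannot be told apart. Slide 4 held no late HFD-LFD tumor either. On the 7 arrays of slides 6 and 7, bands of dimmed rows covering 22.1 to 30.2% of the spots were set missing, and a member with a probe there has fewer values. In the tumor channel 66.1 to 89.2% of the spots exceeded background clearly, the highest shares being those of late HFD tumors 2 and 3 (87.7 and 89.2%). All 49 tested members were well above background in both channels on every array with a value.

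Many genes of the translation machinery carry the E-box CACGTG, the preferred site of the Myc-Max family, near their start. Of the 53 genes, 41 matched a RefSeq promoter of the GRCm38.p6 assembly (250 bases before to 50 after the start), and 10 of them (24.4%) held CACGTG, which is its own reverse complement, at 1 or more starts. Of the 27025 genes with such a promoter 8.09% did, and of the 32851 promoters 7.15%. This is a description of letters and does not show a bound site. The 10 were Eif1b, Eif3a, Eif3f, Eif3k, Eif4a1, Eif4e, Eif4g1, Eif4h, Eif5a and Eif5a2, which span scanning, eIF3, eIF4F and eIF5A. The 250 bases before the start are printed for 3 of them with a single start, because they differed in the arrays: Eif3f was higher in early tumors, Eif3k was not called, and Eif4a1 had its 2 highest values in early HFD-LFD tumors. Capitals mark the E-box, 68, 44 and 189 bases before the start, and the stretches are chr7:108934165-108934414 (plus strand), chr7:28981889-28982138 (minus strand) and chr11:69672424-69672673 (minus strand).
Eif3f: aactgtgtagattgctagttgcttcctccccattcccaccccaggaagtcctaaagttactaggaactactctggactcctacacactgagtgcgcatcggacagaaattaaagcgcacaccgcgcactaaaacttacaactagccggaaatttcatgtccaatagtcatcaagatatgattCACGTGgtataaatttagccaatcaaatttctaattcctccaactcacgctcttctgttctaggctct
Eif3k: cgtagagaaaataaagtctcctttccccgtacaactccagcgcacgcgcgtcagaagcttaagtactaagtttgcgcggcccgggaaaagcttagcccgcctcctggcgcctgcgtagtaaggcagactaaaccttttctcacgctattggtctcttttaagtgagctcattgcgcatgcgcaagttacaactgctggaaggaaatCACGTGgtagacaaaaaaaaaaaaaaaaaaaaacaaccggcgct
Eif4a1: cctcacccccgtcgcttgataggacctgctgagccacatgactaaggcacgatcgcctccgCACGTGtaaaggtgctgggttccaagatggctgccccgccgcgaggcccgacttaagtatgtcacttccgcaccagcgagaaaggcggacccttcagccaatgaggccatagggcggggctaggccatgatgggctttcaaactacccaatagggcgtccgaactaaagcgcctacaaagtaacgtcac
Of the 5 members called between early and late tumors below, Eif3f had the E-box, and Eif3i and Eif4ebp1 were not among the matched genes.

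Early tumors were first set against late tumors, whatever the diet. Of the 49 genes, 4 were higher and 1 was lower in the 6 early than in the 18 late tumors. The higher ones were Eif2b5 (the catalytic subunit of eIF2B), Eif3f and Eif3i (eIF3 subunits) and Eif4enif1 (4E-T, which carries eIF4E and represses the mRNAs it binds), by 1.32-fold to 1.87-fold. The lower one was Eif4ebp1, the mTORC1-controlled inhibitor of eIF4E, by 1.56-fold. That is 10.2% of the members, where 17.8% of all genes tested were called (6.91% higher and 10.9% lower), so a call was not more frequent among them than among genes at large. The median log2 difference was 0.078 over the members and -0.058 over all genes, and 29 of 49 members lay above 0, as did 43.0% of genes.

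**Figure D1:**
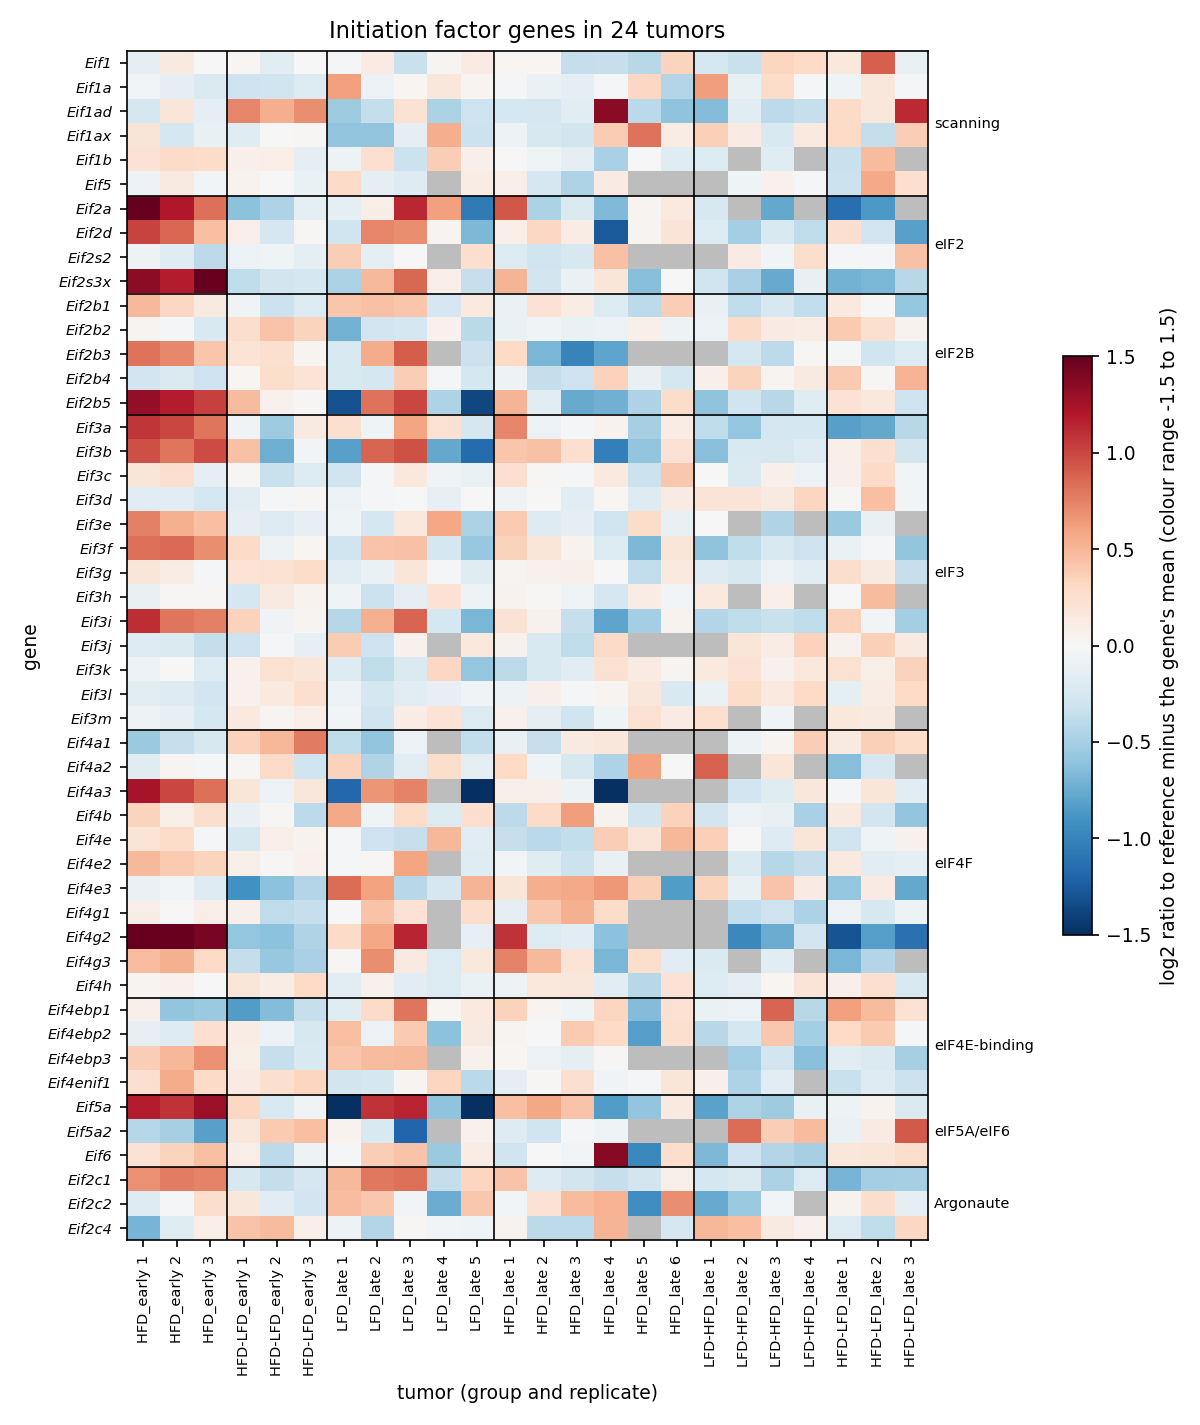
Log2 ratio of tumor to reference minus the gene's mean over tumors (colour, cut at -1.5 and 1.5) for the 49 tested genes (rows, by role) in the 24 tumors (columns, by group), grey where the value is missing. The 3 early HFD tumors are red for Eif2a, Eif2s3x, Eif2b5, Eif3a, Eif3i, Eif4g2 and Eif5a, and paler or blue in the 3 early HFD-LFD tumors.

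Scanning and start codon selection (Eif1, Eif1a, Eif1ad, Eif1ax, Eif1b and Eif5) showed no call among 6 genes, with a median log2 difference of -0.023. The largest sign of change was in Eif1a, with log2 ratios of 0.53 to 0.79 (median 0.62) in early and 0.40 to 1.47 (median 0.82) in late tumors. Only 1 of the late tumors lay below the early median, but the difference of -0.27 ± 0.12 (SE) did not pass the test (adjusted p = 0.0985). Eif5, which triggers GTP hydrolysis on eIF2, differed by -0.01 ± 0.12 (adjusted p = 0.974). The other members of the group had log2 differences of -0.08 (Eif1ax) to 0.39 (Eif1ad).

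The eIF2 group had no call among 4 genes, at a median of 0.55. Eif2s3x, the X-linked gamma subunit, had log2 ratios of 1.62, 1.45 and 1.86 in the early HFD tumors and of -0.10, -0.00 and 0.02 in the early HFD-LFD tumors. In the late tumors it ran from -0.48 to 1.13 (median -0.01), so that 3 of 6 early tumors stood above all late tumors and the other 3 lay near the late median. The pooled difference was 0.71 ± 0.27 (adjusted p = 0.0691). Eif2a, an alternative carrier of initiator tRNA, split likewise, with 1.67, 1.1 and 0.73 in early HFD tumors and -0.72, -0.57 and -0.25 in early HFD-LFD tumors (difference 0.60 ± 0.35, adjusted p = 0.239). Eif2s2, the beta subunit, differed by -0.23 ± 0.12 (adjusted p = 0.171), and Eif2d, another alternative tRNA carrier, by 0.49 ± 0.23 (adjusted p = 0.137).

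Among the 5 eIF2B subunits, Eif2b5 rose. Its log2 ratios were 1.02, 0.87 and 0.71 in the early HFD tumors, 0.17, -0.24 and -0.29 in the early HFD-LFD tumors, and -1.67 to 0.70 (median -0.61) in the 18 late tumors. All 6 early tumors lay above the late median, and the 3 on the HFD above every late tumor. The difference was 0.91 ± 0.28 (1.87-fold, adjusted p = 0.0298; probe at chr16:20507091-20507150, plus strand, mm9, the build of the array files, for which no annotation was used here). Eif2b3, the gamma subunit, had 0.58 ± 0.22 (adjusted p = 0.0684) and Eif2b1, the alpha subunit, 0.08 ± 0.15 (adjusted p = 0.747), with Eif2b2 at 0.18 and Eif2b4 at -0.07.

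In the eIF3 complex 2 of 13 subunits rose, and the median was 0.04. Eif3f had log2 ratios of 0.47, 0.50 and 0.34 in the early HFD tumors, -0.06, -0.43 and -0.33 in the early HFD-LFD tumors and -1.02 to 0.08 (median -0.57) in late tumors. No late tumor reached the median of the early ones, and the difference was 0.58 ± 0.17 (1.49-fold, adjusted p = 0.0226; chr7:116083752-116084173, plus strand, mm9). Eif3i had 0.87, 0.57 and 0.51, then 0.11, -0.29 and -0.19, against -1.03 to 0.64 (median -0.58) in late tumors, a difference of 0.67 ± 0.20 (1.59-fold, adjusted p = 0.026; chr4:129272626-129274145, minus strand, mm9). Again all 6 early tumors lay above the late median, and those on the HFD were the highest of them. Eif3a, the largest subunit, differed by 0.54 ± 0.22 (adjusted p = 0.0865). Eif3k differed by 0.04 ± 0.12 (adjusted p = 0.836). The 11 subunits that were not called had log2 differences of -0.29 (Eif3j) to 0.54 (Eif3a).

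No gene of the eIF4F group was called among 11, at a median of 0.08. The cap-binding protein Eif4e differed by 0.08 ± 0.14 (adjusted p = 0.715), and its 6 early values (0.34 to 0.86) lay inside the late range (0.18 to 1.08). The scaffold Eif4g1 had -0.10 ± 0.15 (adjusted p = 0.651), Eif4g3 -0.03 ± 0.21 (adjusted p = 0.943) and the helicase Eif4a1 0.11 ± 0.18 (adjusted p = 0.691). Eif4a1 ran opposite to Eif2s3x across the early tumors, with -0.24, -0.02 and 0.08 on the HFD and 0.66, 0.82 and 1.1 on the HFD-LFD. Eif4e2 (4EHP, a cap-binding protein that represses translation) had 0.33 ± 0.12 (adjusted p = 0.0604). The widest log2 differences of the group were 0.79 ± 0.32 in Eif4a3 and -0.51 ± 0.22 in Eif4e3, a further eIF4E relative, and neither was called (adjusted p = 0.0915 and 0.0986). Eif4g2 had 0.77 ± 0.42 (adjusted p = 0.199), and Eif4a2, Eif4b and Eif4h had -0.04, 0.05 and 0.16.

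The eIF4E-binding group held the only member that fell. Eif4ebp1 had log2 ratios of -1.56, -2.23 and -2.19 in the early HFD tumors and of -2.47, -2.29 and -1.98 in the early HFD-LFD tumors. In late tumors it ran from -2.29 to -0.76 (median -1.45), and all 6 early tumors lay below that median. Both early groups were low, and the difference was -0.64 ± 0.17 (adjusted p = 0.0146; chr8:28385887-28385946, plus strand, mm9). Eif4enif1 moved the other way in both early groups, with 0.29, 0.61 and 0.34 on the HFD, 0.17, 0.29 and 0.37 on the HFD-LFD, and -0.41 to 0.37 (median -0.08) in 17 late tumors. Its difference was the smallest of the 5 and the most precise, 0.40 ± 0.11 (1.32-fold, adjusted p = 0.014; chr11:3144458-3144517, plus strand, mm9). Eif4ebp2, a second eIF4E inhibitor, differed by -0.06 ± 0.17 (adjusted p = 0.813), and Eif4ebp3, the third, by 0.25 ± 0.18 (adjusted p = 0.332).

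**Figure D2:**
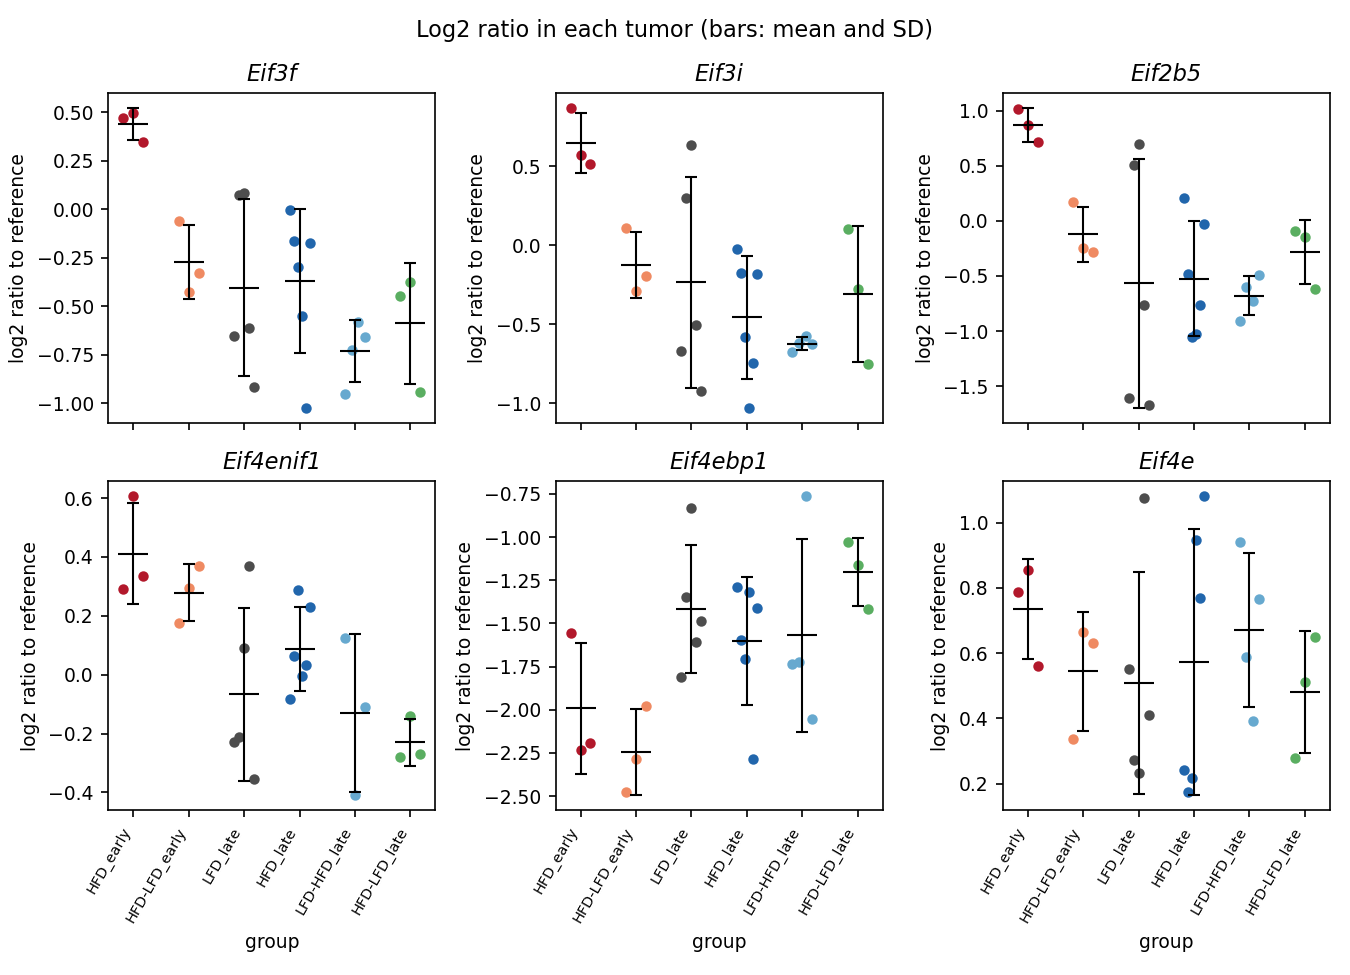
Log2 ratio of tumor to reference in each tumor (points) by group, with mean and SD, for the 5 genes called between early and late tumors and for Eif4e, which was not called. The early HFD tumors stand highest for Eif3f and Eif2b5, late LFD tumor 3 reaches among them for Eif3i, and both early groups are low for Eif4ebp1.

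Eif5a, which needs hypusine on a lysine to act, had values of 0.58 to 0.78 in early HFD tumors and of -0.73 to -0.19 in early HFD-LFD tumors, and its difference of 0.79 ± 0.34 was not called (adjusted p = 0.101). Eif6, which keeps the large ribosomal subunit from joining too soon, differed by 0.14 ± 0.22 (adjusted p = 0.687), and Eif5a2, the second eIF5A gene, by -0.17 ± 0.24 (adjusted p = 0.643). Of the Argonaute genes, Eif2c1 (Ago1) had 0.30 ± 0.22 (adjusted p = 0.351) and Eif2c2 (Ago2) -0.05 ± 0.21 (adjusted p = 0.876), and Eif2c4 (Ago4) had 0.05.

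**Figure D3:**
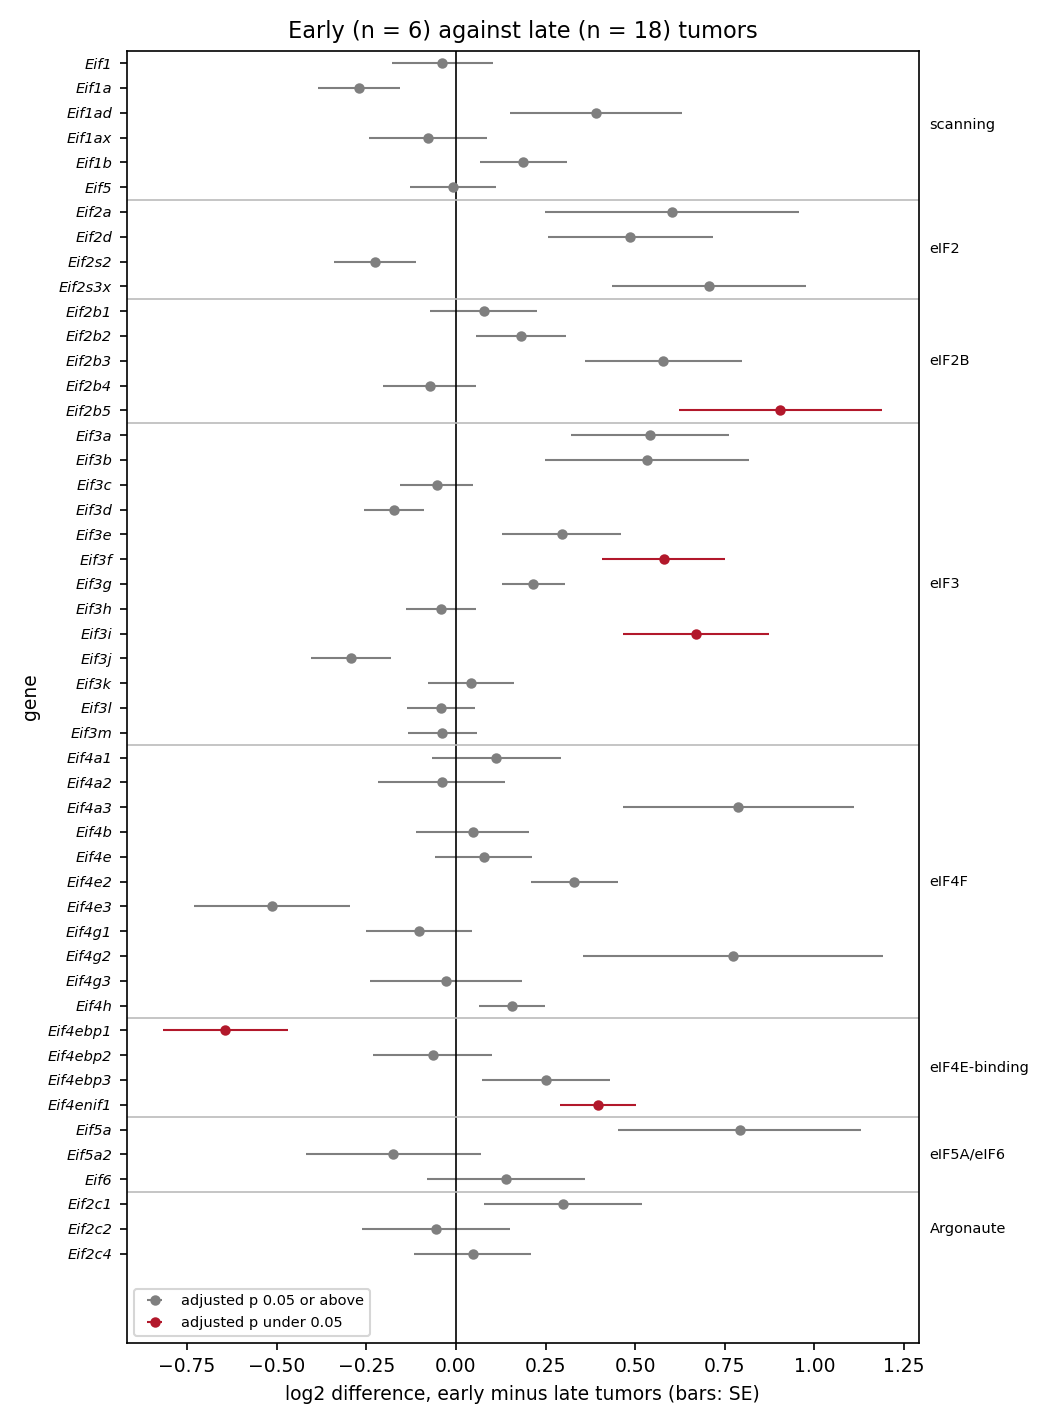
Log2 difference, early minus late tumors (points, with SE), for each of the 49 genes by role, in red where the adjusted p was under 0.05. Every role group holds genes on both sides of 0, and the 5 called genes are Eif2b5, Eif3f, Eif3i, Eif4ebp1 and Eif4enif1.

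Eif4ebp1 kept its call with any 1 tumor left out. Eif4enif1 lost it without early HFD tumor 2 alone (adjusted p of 0.0066 to 0.0535 over the 24 fits), and Eif3f, Eif3i and Eif2b5 lost theirs without any 1 of the early HFD tumors (adjusted p of 0.0625 to 0.0889), so that 1 member was called without early HFD tumor 2, 2 without tumor 1 or 3 and 8 without late LFD tumor 3. With slide as a random block 2 remained, Eif4ebp1 and Eif4enif1. Slide as a fixed block could not decide, because only slide 4 held both onsets, and late LFD-HFD tumor 3 was its only late tumor. Centring arrays on their median in place of loess gave 20 higher and 0 lower. That scaling moved the median of all genes from -0.058 to 0.22 and that of the members to 0.51. Within scan session 1, where all early tumors were on the HFD, 4 were called (Eif2s3x, Eif3a, Eif3e and Eif4g2), and within session 2, where all were on the HFD-LFD, 3 (Eif2s3x, Eif4ebp1 and Eif4enif1). Session 3 held late tumors only. The shares of all genes called under these alternatives are not printed here, so the counts cannot be read against genes at large.

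Markers of other features of the tumors moved with onset too. Of 12 proliferation genes 9 were higher in early tumors, and their mean log2 ratio was 0.11 to 0.86 in early and -1.20 to 0.96 in late tumors. Of 8 luminal epithelial genes 5 were lower (early -0.22 to 2.45, late -1.53 to 4.00), and the squamous list had a mean of -2.74 to 0.03 (median -0.53) in early and -4.14 to 2.94 (median -3.25) in late tumors. Of its 11 genes 10 had a log2 difference above 0 (median 1.43) but 0 were called higher, and Sprr3 was called lower (-0.96). The basal epithelium, macrophage, B cell, adipocyte and skeletal muscle lists had 0 genes called, and the milk protein, T cell, endothelium and fibroblast lists 1 each. Among the members named by the rule given below, the proliferation mean had its highest r with Eif4e2 (0.68, 20 tumors) and Eif4enif1 (0.64, 23 tumors). The lowest was -0.56 with Eif1a, and Eif4ebp1 had -0.27. This is a description over tumors that share array effects, without the r of all genes beside it. The part of these cell features in the initiation factor differences was not tested.

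Within the HFD, mice with early and with late tumors had eaten the same diet throughout. Of the 49 genes 11 were higher in the 3 early than in the 6 late HFD tumors and 0 were lower. They were Eif2s3x, Eif2a, Eif2b3, Eif2b5, Eif3a, Eif3f, Eif3i, Eif4g2, Eif4e2, Eif4ebp3 and Eif2c1. That is 22.4% of members, and 13.5% of all genes tested were called (5.94% higher, 7.54% lower). The median log2 difference was 0.11 over members and -0.084 over all genes. Markers were called in this comparison too: Top2a (1.78) and Ccna2 (1.79) of the 12 proliferation genes were higher, Dcn (-3.12) and Lum (-2.63) of the 7 fibroblast genes were lower, and the luminal (Gata3, -1.99), T cell, endothelium and squamous lists had 1 lower gene each. Their part in the initiation factor differences was not tested.

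The largest change was in Eif4g2 (DAP5), an eIF4G relative that cannot bind eIF4E. Its log2 ratios were 2.42, 2.29 and 2.06 in the early HFD tumors and 1.71, 0.43, 0.47 and 0.01 in the 4 late HFD tumors with a value. Late HFD tumor 1 came nearest to the early ones, and the difference was 1.60 ± 0.33 (3.04-fold, adjusted p = 0.00648). Eif2s3x differed by 1.42 ± 0.25 (2.68-fold, adjusted p = 0.00218), its 6 late HFD tumors lying at -0.36 to 0.79. Eif2b5 rose by 1.39 ± 0.42 (adjusted p = 0.0319) and Eif2b3 by 1.20 ± 0.30 (adjusted p = 0.0162). In each of these 4 genes late HFD tumor 1 had the highest late HFD value.

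Eif2a rose by 1.31 ± 0.39 (adjusted p = 0.0334), Eif3i by 1.11 ± 0.28 (adjusted p = 0.0151), Eif3a by 0.91 ± 0.21 (adjusted p = 0.00929) and Eif3f by 0.81 ± 0.22 (adjusted p = 0.0228). Eif3a had 1.70, 1.62 and 1.43 in early HFD tumors, with late HFD tumor 1 close at 1.35 and the other late ones at 0.13 to 0.73. Eif2c1 rose by 0.83 ± 0.20 (adjusted p = 0.0116), from 0.29 to 1.06 in late to 1.32 to 1.40 in early HFD tumors. The smallest changes were those of the 2 repressors, Eif4e2 (0.57 ± 0.15, adjusted p = 0.0242) and Eif4ebp3 (0.56 ± 0.15, adjusted p = 0.0203). Eif4ebp1 (-0.39 ± 0.26, adjusted p = 0.33) and Eif4enif1 (0.32 ± 0.15, adjusted p = 0.15) were not called here. By role, the calls were 2 of 4 in the eIF2 group, 2 of 5 in eIF2B, 3 of 13 in eIF3 and 2 of 11 in the eIF4F group. There were 1 of 4 among eIF4E-binding proteins, 1 of 3 Argonautes, and 0 in the scanning and eIF5A and eIF6 groups. The 2 in the eIF4F group were Eif4g2 and Eif4e2. Eif4e, Eif4g1, Eif4g3, Eif4a1 and Eif4a2, which encode the parts of eIF4F itself, were not called (adjusted p = 0.64, 0.413, 0.437, 0.17 and 0.854).

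The 11 calls fell to 3 (Eif2s3x, Eif3a and Eif4g2) without early HFD tumor 2, to 5 and 6 without early tumors 1 and 3, to 4 with slide as a random block (Eif2c1, Eif2s3x, Eif3a and Eif4g2), and to 5 without late HFD tumors 2 and 3, an alternative chosen after seeing the data. Slide as a fixed block gives no estimate here, and Eif2s3x, Eif3a and Eif4g2 kept their calls with any 1 tumor left out. The shares of all genes called in these fits are not printed here, so the counts cannot be read against genes at large.

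Probes of the same gene often differed. Of the 11 genes 8 had a single probe past the filter. Both probes of Eif2b3 rose, by 1.20 and 1.17. Eif2s3x rose by 1.42 on its brighter probe, which was used, against -0.19 on the other, and Eif4e2 by 0.57 against -0.03 and -0.11. The reverse was seen in genes that were not called: Eif4b, an eIF4A helper, had 0.12 on its brightest probe and 1.5 on another, Eif4a2, the second eIF4A helicase, -0.08 and 1.02, Eif3h -0.00 and 0.85, and Eif3k -0.03 and 0.92. In 12 of the 20 genes with more than 1 such probe the log2 differences spread by more than 0.5. For early against late tumors as a whole, 9 of the 20 had all probes on one side of 0 and 11 did not.

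**Figure D4:**
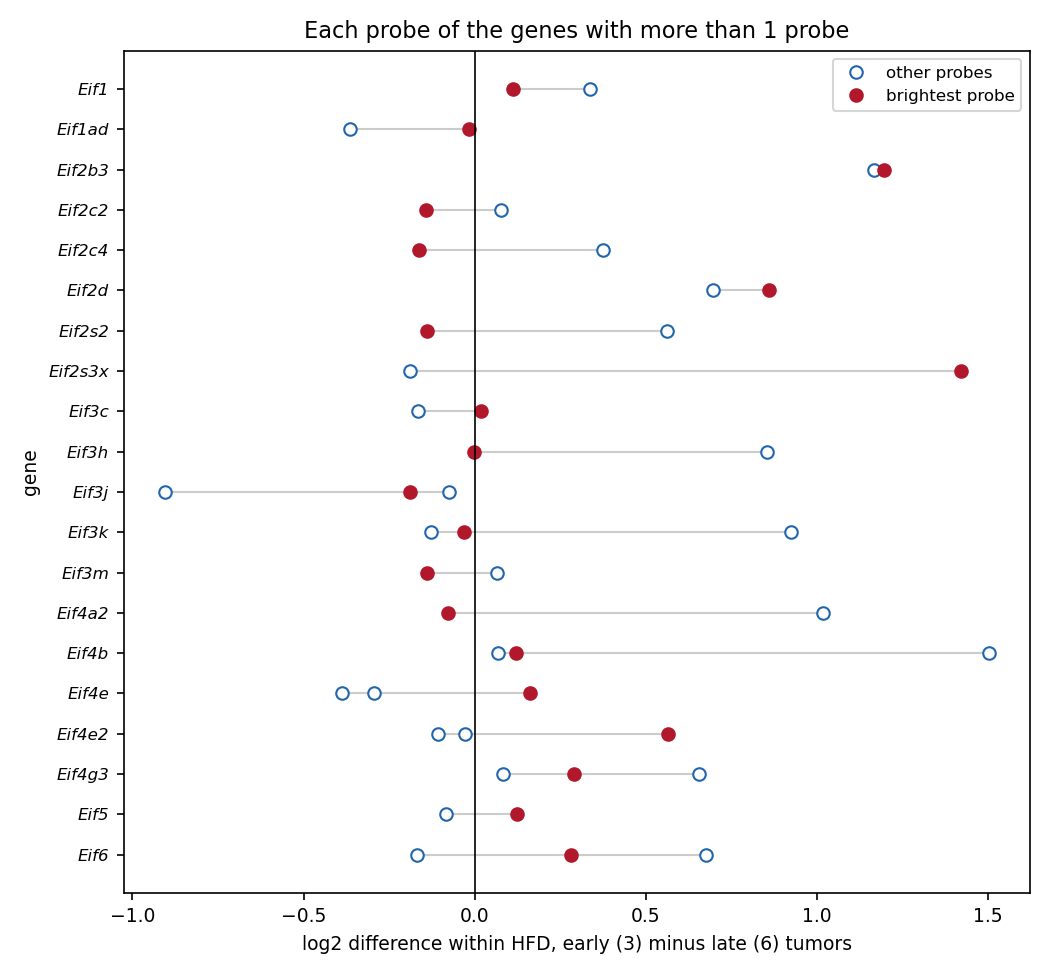
Log2 difference within the HFD, early minus late tumors, on each probe past the filter for the 20 genes with more than 1 probe. Filled points are the brightest probe, which the tests used, and open points the others, with lines joining the probes of a gene that spread from -0.19 to 1.42 for Eif2s3x and from 0.07 to 1.5 for Eif4b.

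Probe position was measured as well. For each of 3781 genes with probes at least 500 bases apart, the log2 ratio nearer the 3′ end was subtracted from that nearer the 5′ end. Each gene's mean over the 24 tumors was then taken off, so 0 is the average tumor and not equal signal at both ends. The median over genes was 0.06 to 0.16 in early HFD tumors and -0.06 to 0.04 in late HFD tumors. It was -0.10 to 0.02 in early HFD-LFD, 0.02 to 0.08 in late HFD-LFD, -0.10 to -0.02 in late LFD-HFD and -0.15 to 0.20 in late LFD tumors. Late LFD tumor 3 had the highest value of all 24 (0.20). Its r over 24 tumors was 0.84 with Eif5a, 0.82 with Eif3b, 0.78 with Eif3i and Eif2b5 and 0.74 with Eif3f, against a 95th percentile of 0.60 over all genes, and 0.19 with Eif4ebp1 and 0.21 with Eif4enif1. With this index as a covariate, an alternative chosen after seeing the data, 3 of the 11 calls within the HFD remained (Eif2s3x, Eif4g2 and Eif2b3), while all 5 of the early against late calls did and Eif4e2 was added. The part of RNA integrity in these differences was not tested. Nor is the share of all genes called with the covariate printed here, so its counts cannot be read against genes at large.

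The same comparison was made within the HFD-LFD, the HFD in peripuberty and the LFD after. Of the 49 genes 0 were called by limma between 3 early and 3 late tumors, and 3 had an unadjusted p under 0.05. Of all genes 0.944% were called, and 16.0% had an unadjusted p under 0.05. Eif4ebp1 differed most, by -1.04 ± 0.30 (unadjusted p = 0.00258, adjusted p = 0.0983). Its early values were -2.47 to -1.98 and its late values -1.41 to -1.03. Eif4enif1 had 0.51 ± 0.17 (adjusted p = 0.153), the late values being -0.28, -0.14 and -0.27. Eif3a had 0.52 ± 0.24 (adjusted p = 0.306).

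The 11 genes that rose within the HFD all had a log2 difference above 0 here too, and all 11 were smaller than within the HFD. Because the 11 were chosen as high within the HFD, smaller differences elsewhere follow in part from that choice. Above 0 here were 28 of the 49 members and 43.8% of all genes. Eif4g2 had 0.53 ± 0.35, Eif2a 0.59 ± 0.50, Eif2s3x 0.30 ± 0.29 and Eif2b5 0.17 ± 0.48. Over the 49 genes 21 were above 0 in both diets, 14 below 0 in both and 14 of opposite sign. The difference between the 2 onset changes was itself tested, and 0 of 49 members and 0% of all genes were called by limma, with 4 members and 1721 genes at an unadjusted p under 0.05. These were Eif2s3x (1.12 ± 0.38), Eif4a1 (-0.63 ± 0.24), Eif4g2 (1.07 ± 0.48) and Eif3i (0.92 ± 0.43), and the smallest adjusted p, that of Eif2s3x, was 0.512. The onset changes of the initiation factors were thus not shown to differ between the diets.

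**Figure D5:**
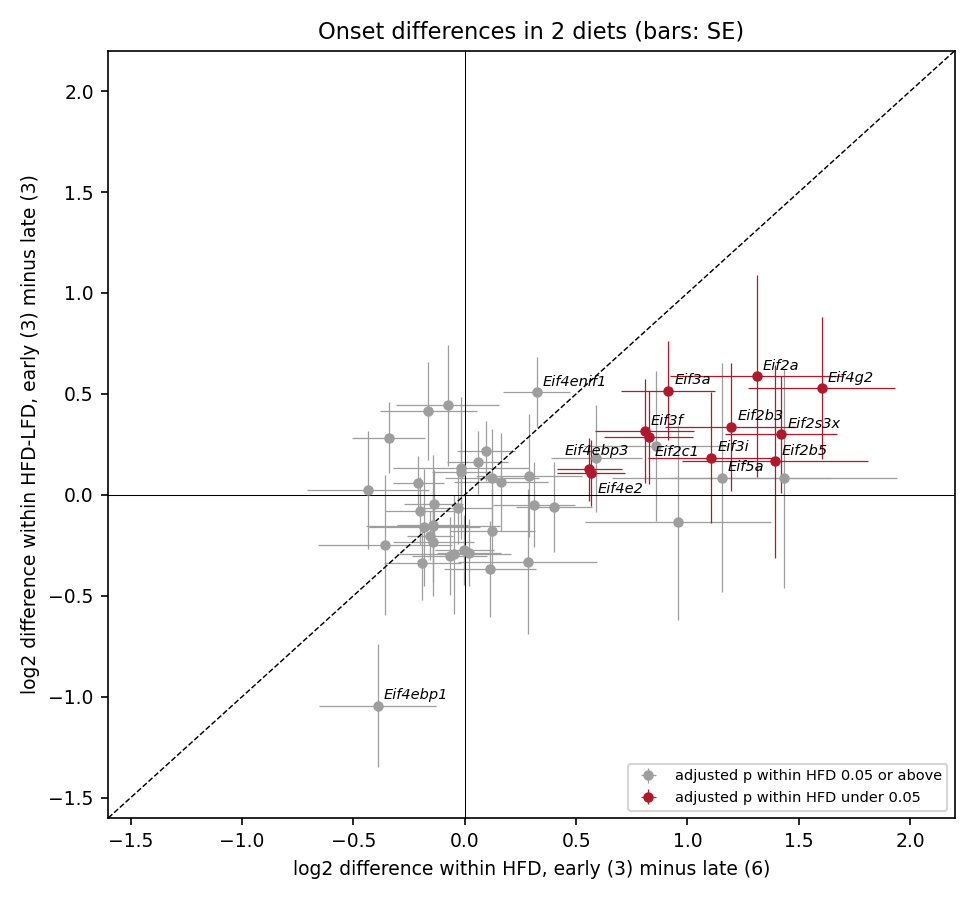
Log2 difference between early and late tumors within the HFD (horizontal axis) and within the HFD-LFD (vertical axis) for the 49 genes, with SE bars and the line of equal change, in red where the adjusted p within the HFD was under 0.05. The 11 red points lie above 0 on both axes and below the line, and were chosen by their test on the horizontal axis. Eif4ebp1 lies lowest at -0.39 and -1.04.

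The diets were compared next. Between 9 HFD and 5 LFD tumors 0 of 49 members and 0% of all genes were called by limma, and 1 member, Eif2b2, and 1057 genes had an unadjusted p under 0.05. The 9 HFD tumors join early and late onset, while the LFD tumors were all late. Among the 4 diets in late tumors, the limma F-test called 3 members where 2.41% of all genes were called, and 13 had an unadjusted p under 0.05 (20.9% of all genes did). Eif4ebp3 (adjusted p = 0.0204) had mean log2 ratios of -0.86 on the LFD, -1.26 on the HFD, -1.5 on the HFD-LFD and -1.70 on the LFD-HFD. Eif2c1 (adjusted p = 0.036) had 1.05, 0.54, 0.07 and 0.34 in the same order, and Eif4g2 (adjusted p = 0.0463) had 1.1, 0.65, -0.45 and -0.04. All 3 had their highest mean on the LFD, the next on the HFD and lower ones in both switched diets. Diet followed scan session here: 4 of 5 late LFD tumors (all on slide 1) and 4 of 6 late HFD tumors were read in session 1, and every switched-diet tumor in session 2 or 3. Late LFD tumor 4, read in session 3, had Eif2c1 at 0.28, and the LFD tumors of session 1 had 0.96 to 1.46. Late LFD tumors 2 and 3 carried high values of Eif2c1 (1.43 and 1.46) and Eif4g2 (1.21 and 1.77). Over the 24 fits that left out 1 tumor, Eif4ebp3 lost its call in 4, Eif2c1 in 17 and Eif4g2 in 18, and the count ran from 0 (without late LFD tumor 1 or 2, or late LFD-HFD tumor 2 or 4) to 6 (without late LFD tumor 4). With scan session as a block, or slide as a random block, 0 were called. No share of all genes called is printed for these alternative fits, so their counts cannot be read against genes at large. Slide as a fixed block could not decide. Of their diets, only late LFD tumor 4 and late HFD-LFD tumor 3 shared a slide with another late diet.

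The members were also compared with each other. Over all 1176 pairs of members the median r of log2 ratios across tumors was 0.018. Over the 78 pairs of eIF3 subunits it was 0.079, from -0.68 (Eif3f and Eif3j) to 0.91 (Eif3f and Eif3i). On the 1 probe used per gene, the eIF3 subunits thus did not all move together. Other probes of the same gene could differ, as described above. The closest pairs joined different complexes: Eif3b and Eif5a (r = 0.949, 24 tumors), Eif2a and Eif4g2 (0.946, 17 tumors), Eif2b5 and Eif3i (0.932, 24 tumors) and Eif3a and Eif4g2 (0.93, 20 tumors). The lowest r was -0.908, for Eif3l and Eif4ebp3 over 20 tumors. These correlations share the reference RNA and array effects and are given without a test. Eif3b, Eif5a, Eif2b5 and Eif3i also had the highest r of the members with the probe position index (0.78 to 0.84). The part of that index in these pairs was not tested.

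Other genes of the translation pathway were counted in the same fit of early against late tumors, where 17.8% of all genes tested were called. Of the 5 genes of eIF2-alpha and its kinases 1 was lower in early tumors, the double-stranded RNA sensor Eif2ak2 (-0.86, adjusted p = 0.00167), and the next was the endoplasmic reticulum stress kinase Eif2ak3 (-0.23, adjusted p = 0.346). Of 16 genes that act on eIF4F through mTORC1, S6 kinase and MNK, 1 was higher, the ribosomal protein and S6 kinase substrate Rps6 (0.35, adjusted p = 0.0154), and Rptor, which binds 4E-BP1 for mTORC1, had -0.24 (adjusted p = 0.21). Of 11 poly(A)-binding proteins and helpers 1 was higher, Pabpc1 (0.45, adjusted p = 0.0228), with its inhibitor Paip2 at 0.29 (adjusted p = 0.111). Of 10 genes of elongation and hypusination 1 was higher, the elongation factor subunit Eef1b2 (0.55, adjusted p = 0.00804), and 1 lower, Dohh, the last enzyme of hypusine synthesis on eIF5A (-0.39, adjusted p = 0.0454). Of 3 termination genes 0 were called (Gspt2 0.43, adjusted p = 0.194; Gspt1 -0.09, adjusted p = 0.59).

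Eif2c3, Eif2s3y, Eif4e1b and Eif5b had no probe past the signal filter. Eif4e1b, an eIF4E relative known from oocytes, failed it because the reference was near 0. On the probe that showed it, the tumor signal after background subtraction was 2.33, 922 and 554 in the early HFD tumors and 148, 533 and 571 in the early HFD-LFD tumors. It was well above background in 5 of 6 early tumors. In the 14 late tumors not dimmed there, it was 0.711 to 127 (median 15.2) and well above background in 3. The gene's other probe did not show this, with 0.351 to 19 in early tumors (0 of 6 well above background) and -3.88 to 203 in late tumors (6 of 18). With no filter on low values Eif4e1b was higher in early tumors by 1.58 (adjusted p = 0.00152), a ratio against a reference that was not well above background. Eif5b, which joins the ribosomal subunits, had tumor signals of 34.8 to 126 in early and 5.38 to 85.8 in late tumors, and Eif2c3 (Ago3) of 46.6 to 90.2 and 17.6 to 308.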

How the data were processed

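Expression was measured on 24 Agilent 2-colour arrays. The deposited scanner files hold an intensity per spot and dye (mean, background-subtracted and processed signals) and a log10 ratio of red to green made by Agilent Feature Extraction (11.0.1.1 per the file headers, 8.5.1.1 per the labels' processing notes). Spots flagged as outliers and bands of rows dimmed by more than 0.3 (log2) were set missing without imputation. Background was corrected by normexp (offset 50) and arrays were normalized by loess (span 0.3) in limma 3.58.1 under R 4.3.3. The log2 ratios were thus computed here from the deposited intensity values. Spots of a probe were averaged, probes needed a background-subtracted signal above 10 in both channels on 80% of the arrays, and the brightest probe stood for a gene. Of the 39429 probes 31373 were named through RefSeq, and the members kept the symbol of the array files.

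Groups came from the labels. Early and late tumors (all 24 arrays) and HFD and LFD tumors (14 arrays) were compared with 1 factor in limma, and the contrasts within a diet, their difference and the F-test among late diets used 6 group means, with Benjamini-Hochberg adjustment over 20969 genes and a threshold of 0.05. Fold changes are linear, and a difference followed by ± has its SE. The scripts were tested on simulated data. Two-colour arrays give no read depth, and the number of arrays limits the precision. The members and gene lists were chosen with earlier results of these data known. Genes were named by rule: every member called early against late, the smallest and largest p of each role, a set of central factors, up to 10 members called in each other comparison, and 2 genes per pathway list. The remaining members were named after their values were seen. The alternatives tried covered background correction, scaling, filters, the choice of probe, array weights, slide and scan session, and each tumor left out.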

Additional observations from a re-analysis of the deposited data

Results flagged for a closer look

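In the groups of 4 to 10 tumors, 92 tests of the highest or lowest value on named members marked 4 values as far from the rest, and chance marks about 1 group in 20. Eif2s2 had a log2 ratio of 0.66 in late HFD tumor 4, against -0.07 to 0.02 in the other 3 late HFD tumors with a value, and of -0.17 in early HFD tumor 3, the lowest of the 6 early tumors. Eif4ebp2 had -0.76 in late HFD tumor 5, and the other late HFD tumors had 0.07 to 0.47. Eif4ebp3 had -1.15 in late LFD tumor 5, and the other 3 had -0.80 to -0.73.

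The tumor signal of Eif4e1b, which the comparisons leave out because no probe passed the signal filter, had a median of 544 in the early tumors on 1 of its 2 probes and of 15.2 in the late tumors.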

How the results depend on the processing

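Counts of members are given in the order early against late, within the HFD, within the HFD-LFD, their difference, HFD against LFD, and late diets, where the reported counts were 5, 11, 0, 0, 0 and 3. At an unadjusted p under 0.05 they were 17, 18, 3, 4, 1 and 13, where 33.7, 30.3, 16.0, 8.21, 5.04 and 20.9% of all genes were. Most counts below stand without such a share and cannot be read against genes at large. Early against late, the count was 3 with dimmed rows kept, 8 with imputation, 20 with median centring, 9 with the tumor channel alone, 15 with array weights, 2 with slide as a random and 0 as a fixed block, 12 with scan session as a block, 3 without slides 6 and 7, 3 within session 2 and 14 with the mean of the 2 early groups against that of the 4 late groups. Higher and lower calls split 4 to 1 as reported, 20 to 0 with median centring, 9 to 0 with the tumor channel and 11 to 4 with array weights. Within the HFD it was 6 with dimmed rows kept, 5 with the tumor channel, 21 with array weights, 4 with slide as a random block, and, chosen after seeing the data, 5 without late HFD tumors 2 and 3 and 3 with the probe position index as a covariate. Within the HFD-LFD it was 1 with normexp fitted on all spots, 2 with array weights, 1 with scan session as a block and 1 without slides 6 and 7, Eif4ebp1 in each case (with Eif4enif1 under array weights). For the difference it was 1 with array weights. Among late diets it was 0 with dimmed rows kept, median centring, slide as a random block or scan session as a block, and 24 with array weights. It was 1 with normexp on all spots, the tumor channel, without slides 6 and 7 or without late HFD tumors 2 and 3. Leaving out 1 tumor gave 1 to 8, 3 to 12, 0 to 0, 0 to 0, 0 to 0 and 0 to 6. The 5 genes called early against late kept their sign under all 22 alternatives, and their calls under 19 (Eif4enif1), 18 (Eif4ebp1), 17 (Eif3f and Eif3i) and 16 (Eif2b5). Of these 22, the unadjusted threshold reuses the reported fit, so sign and call are kept there by construction. Under median centring Eif4g1 (0.43) and Eif5 (0.51) turned sign and were called early against late, and on the probe nearest the 3′ end, also chosen after seeing the data, Eif4e2 turned to -0.11 within the HFD. The cause of these moves was not tested. Slide as a fixed block could not be fitted within the HFD or for the difference, and it left too few shared slides to decide among late diets. No paired analysis was possible because the labels give no replicate numbers that groups share. Dimmed rows left members with as few as 20 arrays.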
